A study of Mus musculus with 6 samples.

Results

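The glutathione system was followed through 10 genes in 1G11 cells, a mouse microvascular endothelial line. The genes were Slc7a11, Gclc, Gclm, Gss, Gsr, Gpx1, Gpx3, Gpx4, Gpx7 and Gpx8, taken as every spot that was no control and whose annotation named one of them. They had 11 spots, 2 of them for Gsr, out of 59305 such spots and 22350 named genes on each array. Total RNA of 3 samples of 1G11-mock cells, the line without SOD3 overexpression, and of 3 samples of 1G11-SOD3 cells, modified to overexpress superoxide dismutase-3, was hybridized to single-color Agilent arrays. The labels call the 3 samples of each line biological replicates and give the strain C57BL/6NCrLBR for both. Before RNA was taken, both lines spent 6 h in conditioned medium of the mouse mammary cancer line N202.1A, so no sample shows the genes without that medium. Whether either line is a single clone is not given in the sources used here. Each sample is the RNA of a whole culture, so that a change in the share of cells and a change of RNA per cell cannot be told apart.

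Glutathione is a small thiol that cells hold as their main soluble antioxidant. Cystine enters the cell through the exchanger built on Slc7a11 and is reduced to cysteine. Glutamate-cysteine ligase, made of the catalytic subunit Gclc and the modifier subunit Gclm, joins cysteine to glutamate, and glutathione synthetase (Gss) adds glycine. Glutathione peroxidases use glutathione to reduce hydrogen peroxide and lipid peroxides, and glutathione reductase (Gsr) returns the oxidized form to its reduced state with NADPH. Superoxide dismutases such as SOD3 turn superoxide into hydrogen peroxide, one of the substrates of these peroxidases. Gpx1, Gpx3 and Gpx4 carry selenocysteine at the active site, whereas Gpx7 and Gpx8 carry cysteine there and reside in the endoplasmic reticulum.

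Each probe is a DNA strand of 60 bases. The probes of the modifier subunit, the synthetase, Gpx4 and Gpx1 are shown because they lie in coding sequence, those of Gclm, Gss and Gpx4 across an intron, so that spliced RNA is what they can bind in full. All are written in the sense of the messenger RNA, from 5′ to 3′.
Gclm: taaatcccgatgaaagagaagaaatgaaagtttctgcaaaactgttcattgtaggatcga
Gss: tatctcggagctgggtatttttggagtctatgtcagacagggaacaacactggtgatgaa
Gpx4: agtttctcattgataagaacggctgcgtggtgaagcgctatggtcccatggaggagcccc
Gpx1: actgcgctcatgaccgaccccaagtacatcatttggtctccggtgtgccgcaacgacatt
In the array annotation, whose build is not given in the files, the Gclm probe covers chr3:121962174-121964809 on the plus strand and the Gss probe chr2:155389432-155390531 on the minus strand. The Gpx4 probe covers chr10:79518691-79518842 and the Gpx1 probe chr9:108242276-108242335, both on the plus strand.

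Some facts of the arrays bear on every value. The 6 arrays shared 1 slide, but the 1G11-mock arrays lay in one row of it and the 1G11-SOD3 arrays in the other, so cell line and slide row cannot be told apart. Between 34.2 and 43.8% of spots were well above background, and none of the 11 spots was saturated. On the 1G11-mock arrays, spots in a rectangular block in the middle of the array read dim. Among bright spots, the median log2 fold change of 1G11-SOD3 over 1G11-mock was 1.11 in the middle and -0.14 elsewhere. The dim area reached past the block, since of 440 areas of 16 rows and 8 columns wholly outside it 15 had a median over 0.5 and the highest had 1.19, so rows counted as outside include some of it. Spots in and outside the middle were therefore kept apart, each difference was set beside the median difference of its neighbors on the array, and all were computed again after a smooth surface of position had been taken from each array. Among 192 probes printed 10 times, on which the surface had not been fitted, the SD of the difference between copies was 0.70 before that adjustment and 0.22 after it. Sod3, the overexpressed gene, lies in the middle and read 13.61, 12.66 and 9.86 (log2 intensity) on the 1G11-mock arrays and 16.37, 16.30 and 16.26 on the 1G11-SOD3 arrays. Its log2 fold change was 4.27 (limma, adjusted p = 0.0076), or 2.63 after the position adjustment (adjusted p = 0.0138). Of 18 endothelial marker genes, 15 had a probe outside the middle. Eng, Kdr and Vwf were well above background on all 6 arrays, 4 others (Cldn5, Egfl7, Icam2 and Pecam1) on some, and 8 on none, Cdh5, Emcn, Erg, Robo4, Sox17, Sox18, Tek and Tie1. Vwf was called lower in 1G11-SOD3, with a log2 fold change of -1.65 (limma, adjusted p = 0.00326), and Egfl7 higher, with 1.82 (limma, adjusted p = 0.0172), or 0.90 and uncalled after position adjustment (adjusted p = 0.101). With 1 array left out, the Egfl7 call held in 2 of 6 fits (limma, adjusted p of 0.0163 to 0.0749) and the Vwf call in 6. The median of the 3 bright markers was -1.05. Of 12 fibroblast and pericyte markers, 5 were bright on all arrays and 6 were called higher in 1G11-SOD3. They were led by Col1a1, at 8.55-fold (limma, adjusted p = 0.00147), and Acta2, at 6.14-fold (limma, adjusted p = 0.00106). Of 12 epithelial and 10 leukocyte markers, none was called outside the middle, and 2 and 4 were bright on all arrays. In the middle, where 11.9% of all rows were called higher, so were the markers Ecscr, Acta2, Pdgfra, Erbb2 and Krt14. The part of these marker changes in the results below was not tested.

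**Figure D1:**
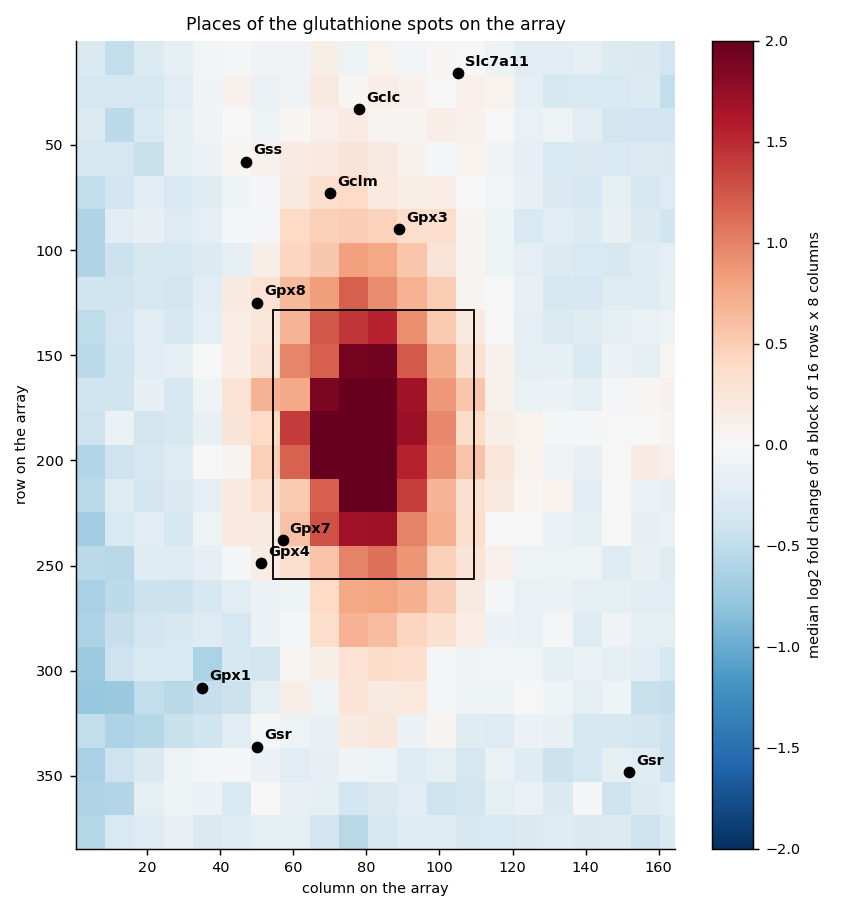
Places of the 11 glutathione spots (black points) on the array, with columns across and rows down. The color is the median log2 fold change (1G11-SOD3 minus 1G11-mock) of blocks of 16 rows and 8 columns, from single-copy probes well above background on at least 3 arrays, and it is full at 2 or above in either direction. The frame is the middle, where blocks are red and which holds Gpx7; Gpx4 lies 4 steps and Gpx8 5 steps outside it.

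No glutathione gene was called different between the lines by the study's rule of more than 2-fold with an adjusted p under 0.05 (limma, Benjamini-Hochberg over all rows tested). Of 7 genes that were well above background on all 6 arrays, Gclc was lower and Gclm and Gpx8 were higher on every 1G11-SOD3 array than on any 1G11-mock array, without passing the adjusted test. Gss, Gpx1 and Gpx4 overlapped between the lines, and the probes of Gsr gave 1 overlap and 1 separation. After position adjustment Gclm overlapped and Gpx4 did not. Slc7a11, Gpx3 and Gpx7 were well above background on none of the arrays. For comparison, 327 of 49526 rows (1 row is 1 probe in 1 zone) outside the middle were called higher in 1G11-SOD3 (0.660%) and 593 lower (1.20%), while in the middle 768 of 6435 rows were called higher (11.9%) and 4 lower (0.0622%). Of the 920 rows called outside the middle, 35.5% were higher, a share that became 56.9% after position adjustment, 53.6% with the middle left out of the normalization and 8.55% with Agilent's processed signal. At any size of difference, 0.705% of rows outside the middle passed the adjusted p in the higher and 1.30% in the lower direction, and of the glutathione probes 0. Separation alone was common, since 29.2% of the 15257 bright rows outside the middle had no overlap between the lines, against 4 of 8 bright glutathione probes. At an unadjusted p under 0.05, 5 of the 10 glutathione probes outside the middle passed, against 12.7% of all rows there. These sets are unlike, since 8 of the 10 probes but only 15257 of the 49526 rows were bright. The median log2 fold change of the 8 bright glutathione probes was -0.21, beside -0.17 for all bright rows outside the middle.

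**Figure D2:**
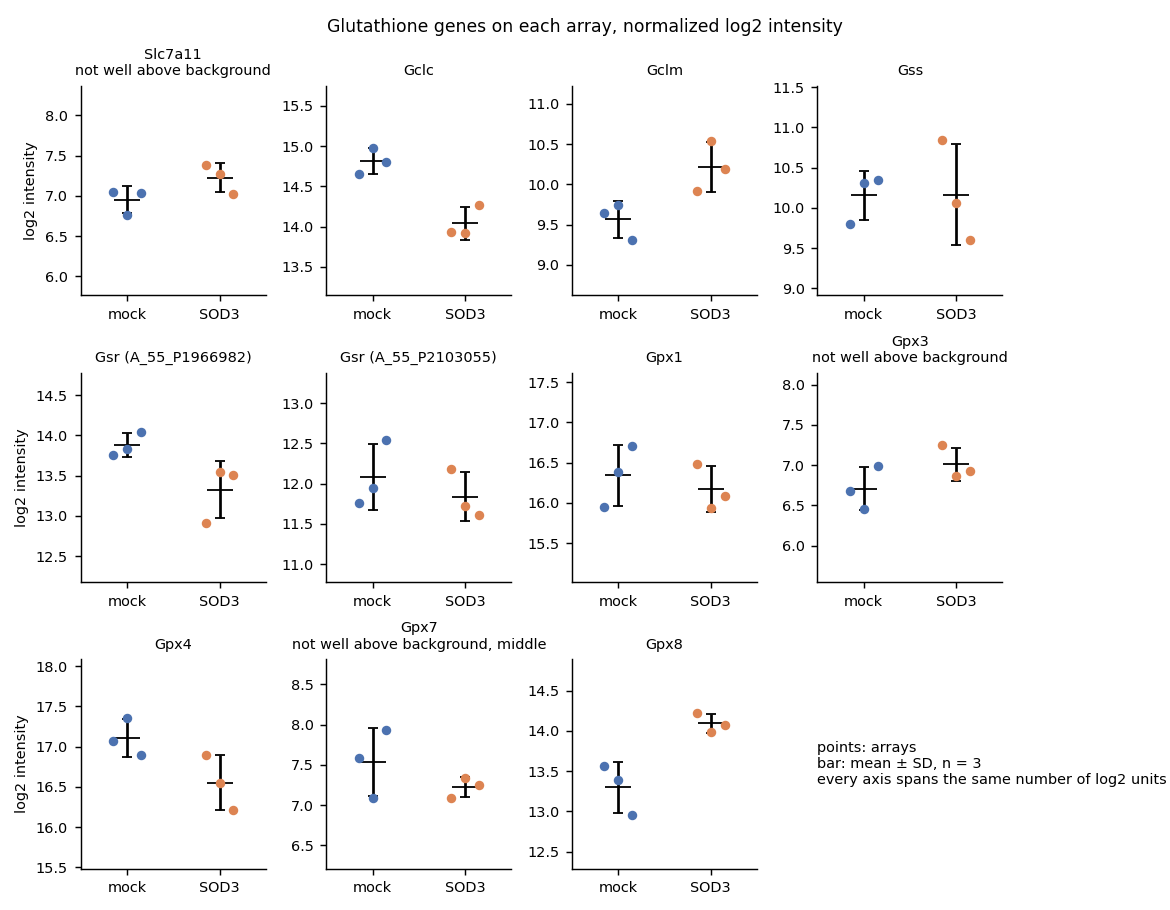
Normalized log2 intensity of each glutathione probe on the 3 1G11-mock (blue) and 3 1G11-SOD3 (orange) arrays, with the mean and SD of each line in black. Every panel spans the same number of log2 units around its own values, since levels of different probes are not comparable. Gclc is lower and Gclm and Gpx8 are higher on all 1G11-SOD3 arrays, while Gss, Gpx1 and Gpx4 overlap. The values are those before position adjustment, after which Gclm overlaps and Gpx4 does not.

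Slc7a11, the cystine exchanger subunit at the head of the pathway, gave log2 intensities of 7.05, 6.76 and 7.04 on the 1G11-mock arrays while those of 1G11-SOD3 gave 7.38, 7.27 and 7.02. All 6 readings were not well above background, for which the dimmest spots that counted as such on these arrays read between 7.56 and 8.17. No fold change is given for it, and a difference in this exchanger was not detectable at this signal.

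Gclc, the catalytic subunit of glutamate-cysteine ligase and the rate-limiting step of glutathione synthesis, read 14.66, 14.98 and 14.80 on the 1G11-mock arrays. On the 1G11-SOD3 arrays it read 13.93, 13.92 and 14.27. All readings in 1G11-SOD3 lay under the lowest in 1G11-mock. The log2 fold change was -0.77 (SE 0.23, n = 3 per line, 95% interval -1.27 to -0.28), a level 0.584 times that of 1G11-mock, and missed the adjusted test (limma, adjusted p = 0.105). The 136 bright spots around it had a median log2 fold change of 0.12, so the place on the array ran in the other direction, and the position adjustment gave -0.85 (adjusted p = 0.0739). Without background correction the difference was -0.77 and its adjusted p was 0.0438, and it stayed under 2-fold.

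Gclm, the modifier subunit that raises the ligase's efficiency, read 9.64, 9.74 and 9.31 on the 1G11-mock arrays and 9.92, 10.54 and 10.19 on the 1G11-SOD3 arrays. Here every 1G11-SOD3 array was above every 1G11-mock array. The log2 fold change was 0.65 (SE 0.25, n = 3 per line, 95% interval 0.11 to 1.19), or 1.57-fold, with an adjusted p of 0.232 (limma). Its neighbors shifted the same way, with a median of 0.38, and the position adjustment reduced the difference to 0.34 (adjusted p = 0.427). The adjusted readings overlapped, with 9.74 on the first 1G11-SOD3 array and 9.85 on the second 1G11-mock array.

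The subunits of the ligase thus had differences of opposite sign. To compare them on the same array, the log2 intensity of Gclc was taken from that of Gclm, and the mean of this quantity over 1G11-mock was set to 0. The measure was chosen after the values had been seen. It was 0.24, 0.01 and -0.25 on the 1G11-mock arrays and 1.25, 1.87 and 1.17 on the 1G11-SOD3 arrays. The lines did not overlap and differed by 1.43 on the log2 scale (two-sided exact permutation test, p = 0.1, the smallest that 3 against 3 arrays allow). After position adjustment the difference was 1.19, and over all alternatives it ran from 1.19 to 1.56. It restates the opposite signs for which it was built and is given as a description.

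Gss, which completes glutathione, read 9.80, 10.31 and 10.35 on the 1G11-mock arrays and 10.84, 10.06 and 9.60 on the 1G11-SOD3 arrays. The 1G11-SOD3 arrays held both the highest and the lowest reading, with an SD of 0.63 against 0.30 in 1G11-mock. The log2 fold change was 0.01 (SE 0.32, 95% interval -0.68 to 0.71, limma, adjusted p = 0.993).

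Gsr, which regenerates reduced glutathione, had both of its probes within the same stretch of chr8, at chr8:34808488-34808547 and chr8:34808413-34808472. The first (A_55_P1966982) read 13.76, 13.84 and 14.05 on the 1G11-mock arrays and 12.91, 13.54 and 13.51 on the 1G11-SOD3 arrays. All 1G11-SOD3 readings of this probe were lower, with a log2 fold change of -0.56 (SE 0.25, 95% interval -1.10 to -0.02, limma, adjusted p = 0.323). The second (A_55_P2103055) read 11.76, 11.94 and 12.54 on the 1G11-mock arrays and 12.18, 11.72 and 11.62 on the 1G11-SOD3 arrays. Its lines overlapped, and its log2 fold change was -0.24 (SE 0.27, 95% interval -0.84 to 0.35, limma, adjusted p = 0.747). The neighbors of the first probe had a median of -0.28 and those of the second -0.08. After position adjustment the probes came to -0.28 (adjusted p = 0.462) and -0.20 (adjusted p = 0.681).

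Gpx1, the abundant cytosolic and mitochondrial peroxidase, read 15.94, 16.39 and 16.70 on the 1G11-mock arrays and 16.49, 15.94 and 16.09 on the 1G11-SOD3 arrays. The lines overlapped over most of their range. Its log2 fold change was -0.17 (SE 0.26, 95% interval -0.75 to 0.41, limma, adjusted p = 0.824). The spots around it had the lowest median of any glutathione spot, -0.53, and the sign turned with the position adjustment, which gave 0.25 (adjusted p = 0.589), so no direction can be read for this gene.

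Gpx4, which reduces lipid peroxides within membranes and guards cells against ferroptosis, read 17.07, 17.36 and 16.90 on the 1G11-mock arrays. On the 1G11-SOD3 arrays it read 16.90, 16.55 and 16.21. The lines met at 16.90, the highest 1G11-SOD3 reading and the lowest of 1G11-mock. The log2 fold change was -0.55 (SE 0.25, 95% interval -1.11 to -0.00105, limma, adjusted p = 0.345), and the position adjustment gave -0.64 (adjusted p = 0.160), against a median of 0.12 for its neighbors. After that adjustment the lines no longer met, with a lowest 1G11-mock reading of 16.89 and a highest 1G11-SOD3 reading of 16.74. The RefSeq gene table also lists Gpx4 pseudogenes, whose part in this signal was not tested.

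Gpx3, the peroxidase secreted into plasma, read 6.68, 6.46 and 6.99 on the 1G11-mock arrays and 7.24, 6.86 and 6.93 on the 1G11-SOD3 arrays. None of these readings was well above background, and no fold change is given.

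Gpx8, a membrane-bound peroxidase of the endoplasmic reticulum, read 13.57, 13.39 and 12.95 on the 1G11-mock arrays and 14.22, 13.99 and 14.07 on the 1G11-SOD3 arrays. Every 1G11-SOD3 array was above every 1G11-mock array, and the 1G11-SOD3 readings lay close together, with an SD of 0.12 against 0.32. The log2 fold change was 0.79 (SE 0.24, 95% interval 0.27 to 1.31), or 1.73-fold, the largest in size among the bright glutathione probes, with an adjusted p of 0.117 (limma). Its neighbors had a median of 0.20, and 0.54 (adjusted p = 0.162) was left after the position adjustment. Gpx7, the related soluble enzyme and the only glutathione spot in the middle, read 7.58, 7.09 and 7.93 on the 1G11-mock arrays and 7.09, 7.34 and 7.25 on the 1G11-SOD3 arrays. All were not well above background, so the middle held no measurable glutathione gene.

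**Figure D3:**
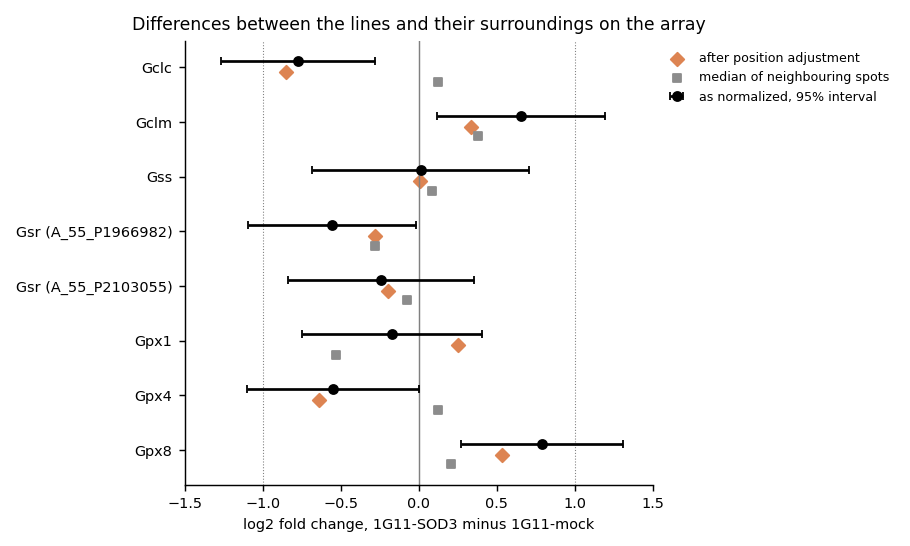
Log2 fold change (1G11-SOD3 minus 1G11-mock) of the 8 bright glutathione probes, with the 95% interval of the limma fit (black), after position adjustment (orange diamonds) and as the median of the neighboring spots (gray squares). Dotted lines mark 2-fold. Gclc and Gpx4 lie on the other side of 0 from their neighbors, while those of Gclm, Gpx8 and both Gsr probes have the sign of the gene's own difference; Gpx1 changes sign.

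The size of the intervals bounds what could be seen. Of the 8 bright probes, 3 had intervals within 2-fold in both directions (Gss, Gpx1 and one Gsr probe), and the others reached past 2-fold on one side. When 1 array at a time was left out, none of the glutathione probes was called in any of the 6 fits. Gclc then ran between -0.90 and -0.69, Gclm between 0.48 and 0.79 and Gpx8 between 0.61 and 0.92.

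Genes around these 10 were read from lists of the same pathway, each gene by any row outside the middle. Counted in this way, 270 of all 20453 genes with such a row were called higher in 1G11-SOD3 and 424 lower. The percentages given above are of rows, not of genes. The list of other glutathione turnover genes held, among others, glutaredoxins, glutamyl transferases and cyclotransferases, glyoxalases, peptidases, transporters and the peroxidases Gpx2, Gpx5 and Gpx6. Outside the middle, Gpx5 and Gpx6 were well above background on no array, and the brightest probe of Gpx2 on 1. The list had 0 of 23 measured genes called, with 4 at an unadjusted p under 0.05. Its 14 genes bright on all arrays had a median log2 fold change of -0.18, beside -0.15 over the brightest probe of all 9385 such genes. The largest differences were those of Ggt7, a member of the glutamyl transferase family, and the glutaredoxin Glrx. Ggt7 was well above background in 1G11-SOD3 alone. Its mean was at least 1.22-fold higher there, but it missed the adjusted test (limma, adjusted p = 0.140), passing after the position adjustment (adjusted p = 0.00571). Glrx differed by 0.80 on the log2 scale, with overlap (limma, adjusted p = 0.473). In the middle, Ggt6 and Anpep were called higher, where 11.9% of all rows were, while Ggt6 outside it was not well above background on any array.

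Among 15 measured genes of cysteine, methionine and glutamate supply, 1 was called outside the middle. This was Cbs, cystathionine beta-synthase, the entry enzyme of the route from homocysteine to cysteine. It read 7.65, 7.13 and 7.19 on the 1G11-mock arrays, not well above background, and 9.30, 8.81 and 8.53 on the 1G11-SOD3 arrays. The lines did not overlap, and Cbs rose by at least 1.73-fold (limma, adjusted p = 0.00922). Without the second 1G11-mock array its adjusted p was 0.0522. Slc1a5, a glutamine carrier named here after its value was seen, read 11.77, 11.64 and 11.63 on the 1G11-mock arrays and 12.89, 12.33 and 12.79 on the 1G11-SOD3 arrays. It rose by 0.99 on the log2 scale (SE 0.23), under 2-fold (limma, adjusted p = 0.0438), whereas its other bright probe gave 0.21 (adjusted p = 0.813). The pass was lost after position adjustment (0.74, adjusted p = 0.0692) and in all 6 fits with 1 array left out (adjusted p of 0.0556 to 0.185). Slc1a5 stayed uncalled in 12 of 15 alternatives with all arrays, over which it ran from 0.70 to 1.16 (limma, adjusted p of 0.0238 to 0.110). The 11 bright genes of the list had a median of -0.09. Mat2a was called higher in the middle, while its brightest probe outside it gave -0.09 (limma, adjusted p = 0.922).

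Of 13 measured genes of NADPH supply, 0 were called outside the middle, and their 12 bright members had a median of -0.04. Tkt, the transketolase of the pentose phosphate pathway, read 16.31, 16.32 and 16.54 on the 1G11-mock arrays and 15.29, 15.76 and 15.16 on the 1G11-SOD3 arrays. It fell by 0.99 on the log2 scale (SE 0.24), just under 2-fold (limma, adjusted p = 0.0499). After position adjustment the fall was only 0.36 (adjusted p = 0.344), and the adjusted p with 1 array left out was 0.0577 to 0.186. Tkt was called lower with median pixel intensities (-1.02, limma, adjusted p = 0.0449) and in the deposited table (-1.01, limma, adjusted p = 0.0451). The probe of malic enzyme Me1 with the largest difference gave 0.80 (limma, adjusted p = 0.190), and its other probes gave -0.07 and -0.65. Aldh1l2 and Nnt were called higher in the middle, while Nnt outside it was not well above background on any array.

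NRF2 is the transcription factor that drives many glutathione genes, Gclc, Gclm, Gsr and Slc7a11 among them. Of 15 measured genes of the NRF2 list, 1 was called, and all 15 were bright on every array. The list holds regulators (Nfe2l2, Bach1, Maff, Mafg and Mafk) beside genes that NRF2 drives. Its median is therefore not that of the driven genes alone. By the brightest probe of each, 13 of the 15 had a log2 fold change below 0, the exceptions being Txnrd1 and Hmox1. Falls were common, since 3555 of all 9385 such genes were above 0. Of the 14 bright genes of other glutathione turnover, 11 were below 0. The median of the NRF2 list was -0.39, beside -0.15 for all such genes. Its regulators ran from -1.11 (Nfe2l2) to -0.63 (Bach1), and its other genes from -0.96 (Sqstm1) to 0.63 (Txnrd1). The called gene was Ephx1, microsomal epoxide hydrolase, which read 13.89, 14.57 and 14.81 on the 1G11-mock arrays and 12.77, 12.83 and 13.16 on the 1G11-SOD3 arrays. This probe fell to 0.354 times its 1G11-mock level (limma, adjusted p = 0.0134), while a second bright probe of Ephx1 gave -0.53 (adjusted p = 0.339). The call was lost without the second 1G11-mock array (adjusted p = 0.0706) and without the first 1G11-SOD3 array (adjusted p = 0.0605). Nfe2l2, which encodes NRF2 and is named here after its value was seen, read 14.96, 14.73 and 14.56 on the 1G11-mock arrays and 13.11, 13.68 and 14.13 on the 1G11-SOD3 arrays. Its lines did not overlap, and its log2 fold change of -1.11 (SE 0.28) missed the threshold (limma, adjusted p = 0.0590). After position adjustment Nfe2l2 was called lower, at -1.002, barely over 2-fold (limma, adjusted p = 0.0431). It stayed uncalled in 13 of 15 alternatives with all arrays and in 5 of 6 fits with 1 array left out.

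The machinery that inserts selenocysteine into Gpx1, Gpx3 and Gpx4 was read in a list that also holds other selenoproteins (Msrb1, Selenon, Selenop, Selenot and Selenow). This list had 0 of 11 measured genes called, and its 8 bright members, those selenoproteins included, had a median of -0.10. Eefsec, the elongation factor for selenocysteine, gave a log2 fold change of 0.97 without overlap (limma, adjusted p = 0.102), and was called after position adjustment (1.08, adjusted p = 0.0434), with 75th percentile scaling (1.14, adjusted p = 0.0355) and with the processed signal (1.15, adjusted p = 0.0438). Sephs2, which makes selenophosphate, had a mean at least 1.27-fold higher in 1G11-SOD3, but missed the adjusted test (limma, adjusted p = 0.127). In the middle Sephs1 was called higher, while its brightest probe outside it gave -0.09 (limma, adjusted p = 0.891). Of 11 measured genes tied to ferroptosis and the defence against lipid peroxides, the theme nearest to Gpx4, 1 was called. Fdft1, squalene synthase of the cholesterol pathway, read 11.14, 11.26 and 10.84 on the 1G11-mock arrays and 12.48, 12.59 and 12.75 on the 1G11-SOD3 arrays. It rose by 1.53 on the log2 scale (SE 0.22, limma, adjusted p = 0.00418). After position adjustment it was 0.87 (adjusted p = 0.0592), no longer called, and its other probe was not well above background on any array. The 8 bright members of the list had a median of -0.33.

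**Figure D4:**
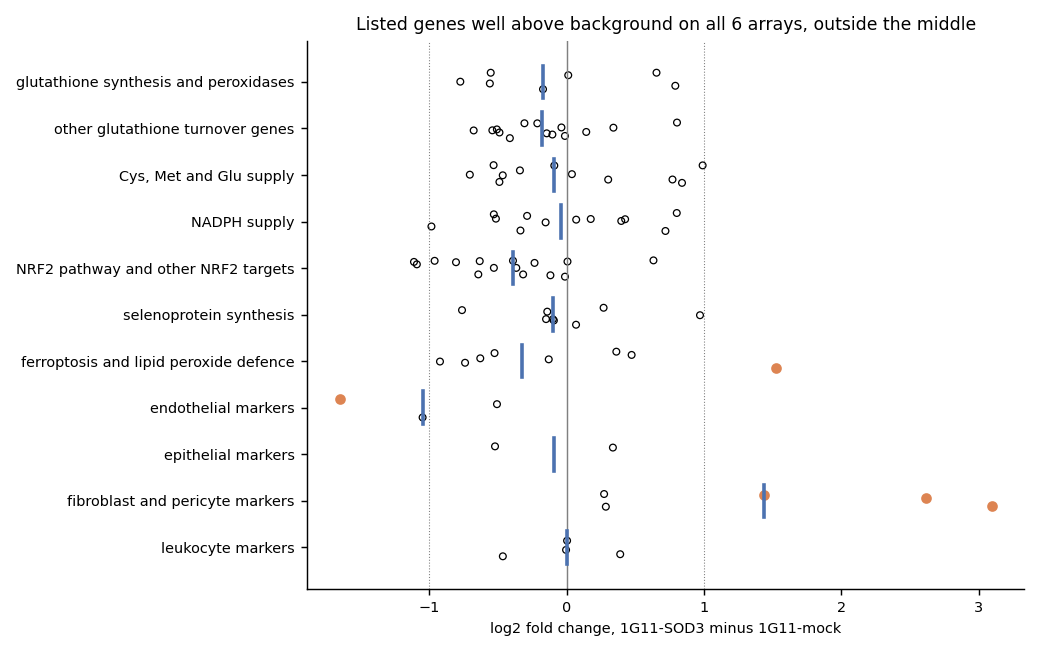
Log2 fold change (1G11-SOD3 minus 1G11-mock) of listed genes that were well above background on all 6 arrays, each by its brightest probe outside the middle. Filled points were called, the blue bars are medians, and dotted lines mark 2-fold. The glutathione genes lie within 2-fold on both sides of 0. Not drawn are Cbs, Egfl7, Col1a2, Lum and Pdgfrb, which were called but not bright on all arrays. The called probe of Ephx1, which was not its brightest, is not drawn either.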

How the data were processed

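Each single-color array (Agilent SurePrint Mouse G3) was read from the authors' Agilent Feature Extraction 10.7.3.1 output, in which the deposited intensity values of each spot are not normalized between arrays. Their deposited log2 table holds background-corrected (normexp, offset of 50), quantile-normalized values, which were recomputed to within 0.005 from median intensities and served as an alternative. The limma version of the authors is not given in the sources used here.

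Mean intensities were corrected by normexp (offset of 50), control spots were removed, and the log2 values were quantile normalized in limma 3.58.1 and R 4.3.3. Outlier spots flagged by the scanner software were left out, and copies of a probe were averaged within each zone. The lines were compared by limma (lmFit, eBayes) over all 49526 rows outside and 6435 rows in the middle, with Benjamini-Hochberg adjustment. A row was called if it exceeded 2-fold at an adjusted p below 0.05. Neighbors were spots in a window spanning 24 rows and 12 columns, centered on the probe, that were well above background on at least 3 arrays. The position adjustment was a smooth surface with 24 row and 16 column functions, fitted to each array with such spots (mgcv 1.9.3). A probe dim on all arrays of one line was given a lower bound against the lowest signal well above background. That bound is on the difference of the means and does not allow for the spread between arrays. Arrays that shared a replicate number deviated together from their line's mean, with correlations of 0.14, 0.19 and 0.12 over rows outside the middle, so the numbers, taken from the sample titles, were used as a block in an alternative fit.

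The 10 genes and all lists were chosen with earlier results of these data known. Named from the other lists were genes with a called row outside the middle, at most 4 per list by size, or the 2 largest where none was called. On simulated data for 49435 rows, 40 of 100 rows changed by 1.5 and 79 of 100 changed by 2.5 log2 units were called. Only these rows were changed, drawn from those of higher mean signal, with independent noise and no effect of position. The shares therefore need not hold for the real arrays. The 3 arrays per line limit the precision. Tables and figures used Python 3.11.15, numpy 2.4.6, pandas 2.3.3, scipy and matplotlib 3.10.9.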

Additional observations from a re-analysis of the deposited data

How the results depend on the processing

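Under 21 alternatives, 159 of the 168 recomputed differences of the 8 bright glutathione probes kept their direction and stayed uncalled, and the other 9 turned sign without a call. Those with all arrays were Gpx1 with the processed signal (0.31), 75th percentile scaling (0.001) and position adjustment (0.25), the second Gsr probe with the processed signal (0.078), and Gss with median pixel intensities (-0.058) and in the deposited table (-0.057). With 1 array left out, Gpx1 ran from -0.37 to 0.0065 and Gss from -0.32 to 0.29. Among the other named genes, Me1 turned with position adjustment (-0.034) and Csf1r, a leukocyte marker, with the processed signal (-0.19) and position adjustment (-0.32). The first Gsr probe shrank to -0.07 with the processed signal.

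With the processed signal, 1 glutathione gene outside the middle (Gpx3, lower) and 1 in it (Gpx7, lower) were called, along with 7921 rows in all outside the middle, 677 of them higher, and 10 genes of the pathway lists; neither gene was well above background on any of the arrays, and the median log2 fold change of all rows was -0.52. The cause was not tested. Scaling to the 75th percentile gave 1555 called rows outside the middle and 5 pathway genes, position adjustment gave 529 higher rows and 6 pathway genes, and leaving out dim rows gave 5 pathway genes, against 920, 327 and 3. Leaving out 1 array gave 440 to 869 called rows, 156 to 335 of them higher, and 1 to 4 pathway genes, with 440 rows and 1 pathway gene without the second 1G11-mock array. With 1 array left out, its line had 2.

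With the replicate number as a block, 1244 rows were called outside the middle and no glutathione gene, and no call of a named gene changed. The signal over background limits Slc7a11, Gpx3 and Gpx7, for which no difference could be measured.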
